A study of Mus musculus with 6 samples.

Results

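Guanylate-binding proteins (GBPs) and immunity-related GTPases (IRGs) are described here in 6 RNA-seq libraries labelled mouse skeletal muscle. The members were chosen by symbol: Gbp2, Gbp3, Gbp5, Gbp7, Gbp9, Irgm1, Irgm2, Igtp, Iigp1 and Tgtp1. Of these 10 symbols, 9 were matched by Ensembl identifier to 1 of the 43432 genes counted in each library, and Gbp5 was not matched and has no value here. The series concerns IGF-I made by fibro-adipogenic progenitors (FAPs), the resident mesenchymal progenitors of muscle, in mice whose Igf1 gene is deleted in these cells. The libraries were labelled FID in 3 cases and control in 3 cases. All 6 titles carry the tag D3, and the labels spell out neither abbreviation, nor the alleles, the Cre driver, the strain or any injury. Per the labels' protocols, mice received tamoxifen in corn oil by intraperitoneal injection daily for 5 days, 100 ug for each g of weight, beginning at 12 to 13 weeks of age. The labels do not set the groups apart in this. At least 1 week passed before experiments, and both sexes were used in the study. The protocols describe RNA of both tissue and primary FAPs. Whether each library is a separate animal is not said, and the p-values reflect the spread among these libraries alone, which may be technical.

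Both families are GTPases that cells make after exposure to interferons, interferon gamma above all. GBPs are large GTPases of the dynamin type that coat the vacuoles of intracellular pathogens, help to break them open and lead to caspase activation. IRGs come in a pair of classes in the mouse: regulators with a changed nucleotide-binding loop (Irgm1, Irgm2 and Igtp, also called Irgm3), which sit on the cell's own membranes, and effectors (Iigp1 and Tgtp1), which load onto pathogen vacuoles. Promoters of interferon-induced genes often carry short elements known as gamma-activated sites (GAS) and interferon-stimulated response elements (ISRE), the second of which interferon regulatory factors bind.

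The promoters are shown because the members ranked the libraries in nearly the same order, as described further on. RefSeq windows (GRCm38.p6, which is mm10), from 250 bases before to 50 bases after a transcript start, were found for 8 of the 10 symbols, with a second start for Gbp3. None was found for Gbp9 or Iigp1. The ISRE core was searched as GAAA, any 2 bases, GAAA and the GAS core as TTCNNNGAA, on both strands, and no match of one overlapped a match of the other. The 250 bases upstream of the start are printed for 3 IRG genes and 2 GBP genes, 5' to 3' on the strand of the gene, with the matches in capitals.
Igtp, chr11:58199306-58199555, plus strand: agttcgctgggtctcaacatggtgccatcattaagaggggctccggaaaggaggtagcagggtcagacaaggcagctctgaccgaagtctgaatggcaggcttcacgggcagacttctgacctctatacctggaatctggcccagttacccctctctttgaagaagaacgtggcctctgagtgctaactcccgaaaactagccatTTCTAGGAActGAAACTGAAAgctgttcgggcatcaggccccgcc
Irgm2, chr11:58214727-58214976, plus strand: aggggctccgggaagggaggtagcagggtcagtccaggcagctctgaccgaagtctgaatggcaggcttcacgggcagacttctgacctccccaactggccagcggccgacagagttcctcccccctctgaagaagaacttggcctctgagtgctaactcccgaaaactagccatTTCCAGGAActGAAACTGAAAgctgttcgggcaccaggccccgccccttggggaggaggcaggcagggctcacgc
Tgtp1, chr11:48992247-48992496, minus strand: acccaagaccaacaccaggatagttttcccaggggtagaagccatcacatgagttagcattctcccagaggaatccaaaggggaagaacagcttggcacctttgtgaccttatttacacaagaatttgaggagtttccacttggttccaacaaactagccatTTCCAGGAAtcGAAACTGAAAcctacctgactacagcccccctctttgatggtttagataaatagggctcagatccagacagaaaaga
Gbp3, chr3:142559794-142560043, plus strand: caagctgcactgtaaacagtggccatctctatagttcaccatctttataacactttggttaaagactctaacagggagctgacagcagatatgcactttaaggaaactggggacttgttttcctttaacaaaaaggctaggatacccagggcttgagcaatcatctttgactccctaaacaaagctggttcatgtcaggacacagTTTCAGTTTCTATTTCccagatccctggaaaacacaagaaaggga
Gbp2, chr3:142620413-142620662, plus strand: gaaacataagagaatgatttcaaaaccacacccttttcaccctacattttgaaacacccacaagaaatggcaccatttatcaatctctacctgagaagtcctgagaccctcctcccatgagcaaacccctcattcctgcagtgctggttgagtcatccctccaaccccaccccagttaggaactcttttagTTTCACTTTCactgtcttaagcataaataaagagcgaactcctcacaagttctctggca

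An ISRE core lay in 8 of the members' 9 windows, against 3.44% of all 32851 promoter windows of this length, and each of the 8 genes had one. A GAS core lay in 5 of the 9 windows (Gbp5, Gbp7, Irgm2, Igtp and Tgtp1), against 8.30% of all windows. The cores were not particular to the members. Other GBP and IRG genes had an ISRE core in 4 of 6 windows and a GAS core in 3 of 6. Genes known for induction by type I interferon had an ISRE core in 7 of 15 windows and a GAS core in 3 of 15. The promoters of Igtp, Irgm2 and Tgtp1 held the cores in the same arrangement, a GAS core followed after 2 bases by an ISRE core, starting 45, 75 and 88 bases upstream of the transcript start. This arrangement occurred in 5 of the 32851 windows. The 5 were those of Igtp, Irgm2, Tgtp1, Tgtp2 and Gm12185, all on chromosome 11. It was chosen after the matches were seen, and the 5 windows belong to related genes, so they are not independent. In Gbp2 a single ISRE core began 59 bases upstream, and in Gbp3 a pair of overlapping ISRE cores began 45 and 39 bases upstream. Irgm1 likewise had overlapping ISRE cores, at 30 and 24 bases upstream. Gbp7 had GAS cores at 106 and 87 bases and an ISRE core at 53 bases upstream. A match is a stretch of letters and shows no binding.

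**Figure D1:**
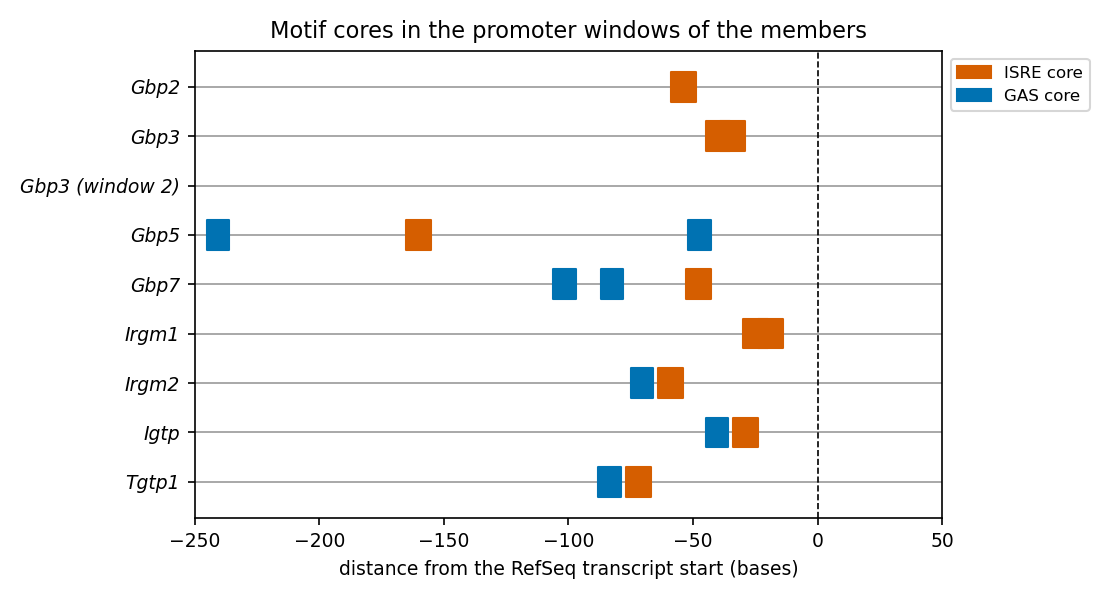
Positions of ISRE cores (orange) and GAS cores (blue) in RefSeq promoter windows of the members, with the x axis giving the distance in bases from the transcript start. The paired cores of Irgm2, Igtp and Tgtp1 lie between 88 bases upstream and the start, and the second window of Gbp3 holds neither core.

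Gene counts summed to 5201853 to 10093757 per library, with control 1 the shallowest. Igf1, the gene the model deletes (chromosome 10, 87858265 to 87937042, plus strand), stood at 109, 107 and 81.6 CPM in FID 1, 2 and 3 and at 134, 60.4 and 106 CPM in control 1, 2 and 3. Its log2 fold change was -0.01 (± 0.28 SE, adjusted p 0.990 by edgeR). A deletion of some exons need not lower this whole-gene count, and the labels do not give the alleles. The count is therefore no check on the group labels, and why it did not differ was not tested. Transcripts of muscle fibres were scarce for a sample labelled muscle: 10 fibre markers summed to 22.3 to 36.5 CPM in FID and 10.04 to 65.9 CPM in control, against 23350 to 33231 CPM in FID and 43161 to 48416 CPM in control for 12 FAP markers. CPM is the count of a gene per 1000000 gene counts after scaling by TMM (trimmed mean of M-values) factors. Log2 fold changes set FID over control, and p-values come from edgeR's two-sided quasi-likelihood test and Benjamini-Hochberg adjustment over the 12881 genes that passed a filter on low counts, all 9 matched members among them. A gene is said to pass at an adjusted p under 0.05.

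The members averaged higher in FID, with wide spread in both groups, and none passed the test. All 9 had a log2 fold change above 0, against 47.8% of all tested genes, with a median of 1.31 against -0.019 over all tested genes. The values ran between 0.50 for Iigp1 and 1.83 for Igtp. Of the members, 0 passed edgeR's adjusted test, as did 0 of all tested genes (0.00%). An unadjusted edgeR p under 0.05 was reached by 4 members, all higher in FID (Gbp3, Gbp9, Irgm2 and Igtp), against 9.81% of all tested genes in that direction. In no member did the groups separate without overlap, whereas 25.3% of all tested genes did so. DESeq2, another count test, passed Gbp3 and Igtp, 2 of 9 members against 3.66% of all tested genes in that direction and 5.93% in either. Limma-voom with sample weights passed 5 members (Gbp3, Gbp9, Irgm1, Irgm2 and Igtp) against 6.88% upward, and 8 members reached its unadjusted p under 0.05, against 32.0% of all tested genes. The direction was the same in every setting that kept all 6 libraries. With 3 libraries against 3, an exact permutation test of a single gene cannot give a two-sided p below 0.10.

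**Figure D2:**
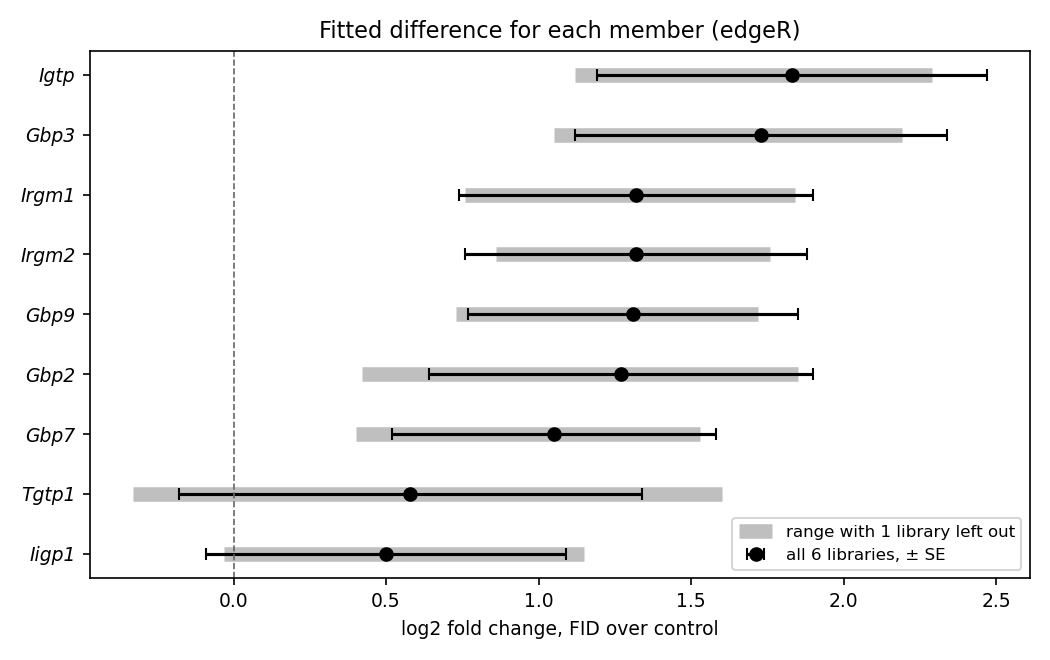
Log2 fold change (FID over control) of each member in edgeR, with the SE as error bars and, in grey, the range of the estimate when 1 of the 6 libraries is left out. Igtp and Gbp3 have the highest estimates at 1.83 and 1.73, and the grey ranges of Tgtp1 and Iigp1 reach below 0.

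The spread followed single libraries. FID 2 was the highest library for 9 of 9 members and control 2 the lowest for 9 of 9. FID 3 came second for 7 members, and control 1 did so for Iigp1 and Tgtp1. FID 1 lay within the range of the control libraries for all 9 members, against 52.1% of all tested genes. The members' CPM summed to 587, 2821 and 1559 in FID 1, 2 and 3 and to 1169, 386 and 642 in control 1, 2 and 3, from 3807 counts in control 2 to 26870 counts in FID 2. Without FID 2 the median log2 fold change of the members was 0.73, and without control 2 it was 1.05. Without FID 1 it was 1.72, and Gbp3 and Igtp passed (adjusted p 0.0453 and 0.0470 in edgeR's test), where 2.15% of all tested genes passed in that direction. Without FID 1 the groups did not overlap for 7 members, against 40.8% of all tested genes, and 7 members had an unadjusted edgeR p under 0.05, against 19.8%. Without control 1 the median was 1.71 and 0 members passed, while 8 had an unadjusted edgeR p under 0.05, against 19.8% of all tested genes.

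**Figure D3:**
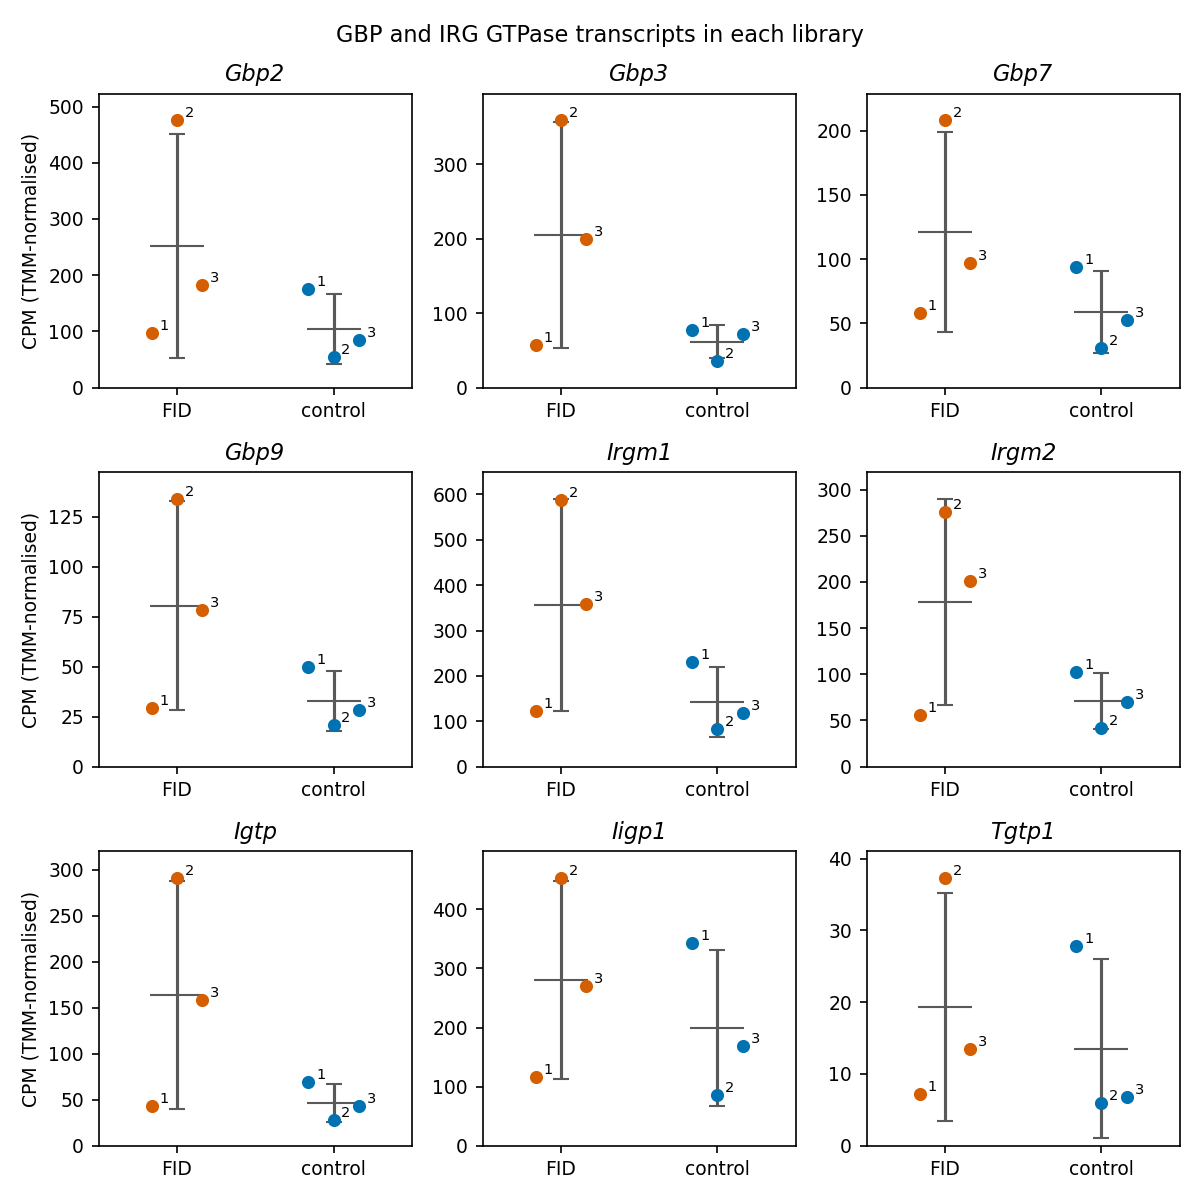
CPM of each of the 9 members in the 3 FID (orange, left) and 3 control (blue, right) libraries, numbered by replicate, with the mean as a bar and the SD as an error bar. FID 2 is the highest point in every panel, control 2 the lowest, and FID 1 lies among the control points.

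Among the GBPs, 3 of the 4 members measured lie in a cluster on chromosome 3 and Gbp9 in another on chromosome 5. Gbp2 (ENSMUSG00000028270, chromosome 3, 142620602 to 142638008, plus strand) encodes a lipid-anchored GBP that coats the vacuole of Toxoplasma. It stood at 96.6, 476 and 183 CPM in FID 1, 2 and 3 and at 175, 55.2 and 84.6 CPM in control 1, 2 and 3. FID 2 stood alone, and FID 3 was level with control 1. The means were 252 ± 199 CPM in FID and 105 ± 62.4 CPM in control (SD, n = 3 each), with a log2 fold change of 1.27 (± 0.63 SE, adjusted p 0.317 by edgeR), which was 0.42 without FID 2.

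Gbp3 (ENSMUSG00000028268, chromosome 3, 142560026 to 142573209, plus strand), a neighbour of Gbp2 in the cluster, measured 56.7, 359 and 199.6 CPM in FID 1, 2 and 3. In control 1, 2 and 3 it measured 77.9, 36.2 and 71.7 CPM. FID 2 and FID 3 both exceeded every control, and FID 1 did not. Its means of 205 ± 151 CPM in FID and 61.9 ± 22.5 CPM in control (SD, n = 3 each) gave a log2 fold change of 1.73 (± 0.61 SE, adjusted p 0.200 by edgeR and 0.0371 by DESeq2), which was 1.05 without FID 2.

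Gbp7 (ENSMUSG00000040253, chromosome 3, 142530342 to 142550149, plus strand), a GBP known to act in macrophage defence, had 58.5, 208 and 96.7 CPM in FID 1, 2 and 3 and 93.5, 30.9 and 52.7 CPM in control 1, 2 and 3. As for Gbp2, control 1 nearly reached FID 3. Its log2 fold change was 1.05 (± 0.53 SE, adjusted p 0.326 by edgeR), and 0.40 without FID 2. Stretches of 50 bases that other genes' transcripts also hold made up 12.7% of the Gbp7 transcripts, most of them shared with the pseudogene Gm43802. Gbp9 (ENSMUSG00000029298, chromosome 5, 105077630 to 105139539, minus strand) had 29.2, 134 and 78.4 CPM in FID 1, 2 and 3 and 49.6, 20.9 and 28.1 CPM in control 1, 2 and 3. Here FID 2 and FID 3 lay above all controls, with a log2 fold change of 1.31 (± 0.54 SE, adjusted p 0.251 by edgeR), and 0.73 without FID 2. Its exons overlap those of Gbp8 and Gbp4 on the same strand over 60 bases.

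The regulatory IRGs sit in clusters on chromosome 11. Irgm1 (ENSMUSG00000046879, chromosome 11, 48861968 to 48871683, minus strand), needed in mice for macrophage control of mycobacteria, had the highest CPM of the members in FID 2. It measured 123, 588 and 358 CPM in FID 1, 2 and 3 and 230.0, 81.9 and 117 CPM in control 1, 2 and 3. The means of 356 ± 233 CPM in FID and 143 ± 77.4 CPM in control (SD, n = 3 each) gave a log2 fold change of 1.32 (± 0.58 SE, adjusted p 0.273 by edgeR), which was 0.76 without FID 2. Control 1 was the highest control, below FID 3.

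Irgm2 (ENSMUSG00000069874, chromosome 11, 58199618 to 58222782, plus strand) and Igtp (ENSMUSG00000078853, chromosome 11, 58199556 to 58207591, plus strand) overlap in the GENCODE annotation, sharing 162 exon bases. Of their 50-base stretches, 7.77% for Irgm2 and 11.8% for Igtp also occur in other genes, mainly in each other, so part of their reads cannot be assigned to 1 of them. Irgm2 stood at 56.5, 276 and 201 CPM in FID 1, 2 and 3 and at 102, 42.0 and 69.8 CPM in control 1, 2 and 3. FID 2 and FID 3 were closest to each other in this gene, with FID 2 at 1.37 times FID 3. The log2 fold change was 1.32 (± 0.56 SE, adjusted p 0.258 by edgeR), and 0.86 without FID 2. Igtp, a regulator found at the endoplasmic reticulum, stood at 42.6, 291 and 158 CPM in FID 1, 2 and 3 and at 68.6, 27.9 and 42.8 CPM in control 1, 2 and 3. It had the largest difference of the members, with means of 164 ± 124 CPM in FID and 46.4 ± 20.6 CPM in control (SD, n = 3 each) and a log2 fold change of 1.83 (± 0.64 SE, adjusted p 0.199 by edgeR and 0.0342 by DESeq2), which was 1.12 without FID 2.

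Among the members, the effector IRGs Iigp1 and Tgtp1 had smaller differences than the others, and the sign of their difference rested on FID 2. Whether this extends to effector IRGs as a class cannot be said from these counts. Tgtp2, near-identical to Tgtp1, had a log2 fold change of 2.16, but the counts of both genes are uncertain. Iigp1 (ENSMUSG00000054072, chromosome 18, 60376027 to 60392634, plus strand) stood at 117, 453 and 271 CPM in FID 1, 2 and 3 and at 344, 84.9 and 168 CPM in control 1, 2 and 3. Control 1 thus exceeded FID 3, and FID 1 was below control 3. Its log2 fold change was 0.50 (± 0.59 SE, adjusted p 0.683 by edgeR) and -0.03 without FID 2. Tgtp1 (ENSMUSG00000078922, chromosome 11, 48985327 to 48994172, minus strand) stood at 7.21, 37.3 and 13.5 CPM in FID 1, 2 and 3 and at 27.9, 5.98 and 6.74 CPM in control 1, 2 and 3. Control 1 was second to FID 2, at 4.14 times control 3. The log2 fold change was 0.58 (± 0.76 SE, adjusted p 0.714 by edgeR) and -0.33 without FID 2. The count of Tgtp1 is uncertain, because 81.2% of its 50-base stretches also occur in other genes, 79.4% in the near-identical Tgtp2. Reads with several alignments enter no gene count. The same holds for Tgtp2, where 86.6% of the 50-base stretches also occur in other genes, 85.8% in Tgtp1. How far this shaped the contrast between these genes was not tested. Tgtp2 (chromosome 11, 49057194 to 49064206) stood at 14.8, 114 and 44.7 CPM in FID 1, 2 and 3 and at 23.9, 5.68 and 10.6 CPM in control 1, 2 and 3, with a log2 fold change of 2.16 (± 0.78 SE, adjusted p 0.205 by edgeR).

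**Figure D4:**
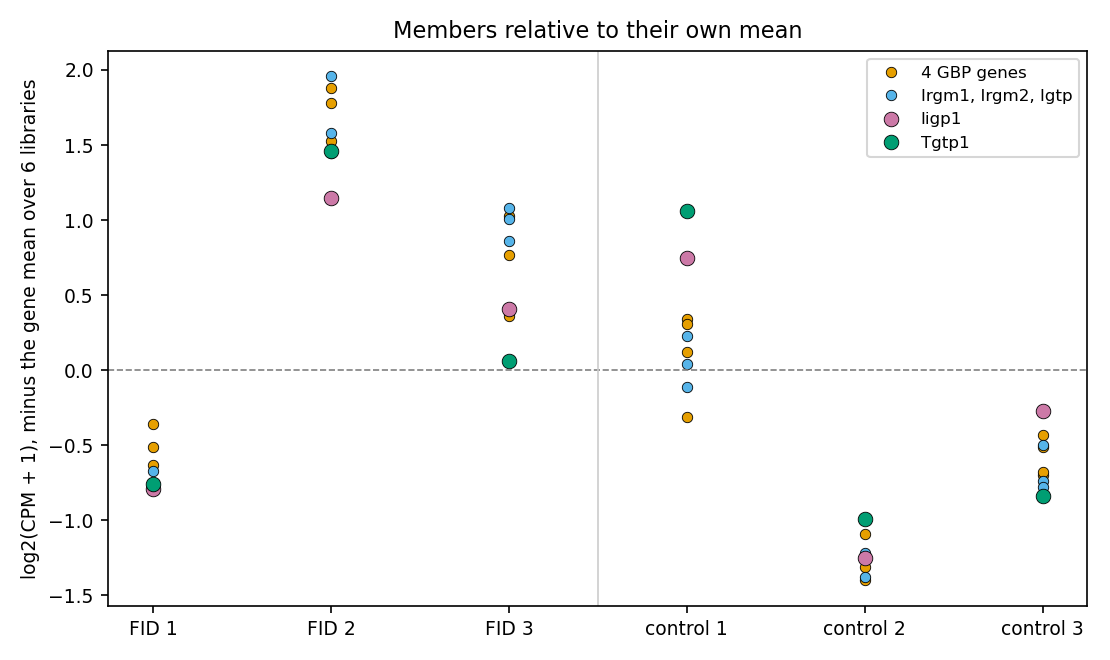
Log2(CPM + 1) of each member in each library, minus the mean of that gene over the 6 libraries, for the GBPs (yellow), the regulatory IRGs (light blue), Iigp1 (pink) and Tgtp1 (green). FID 2 is the highest and control 2 the lowest library for every member, and Iigp1 and Tgtp1 stand above the others in control 1, at 0.75 and 1.06.

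The share of the summed level that each member took was also set side by side. Iigp1 took 19.9%, 16.05% and 17.4% of the members' summed CPM in FID 1, 2 and 3 and 29.4%, 22.0% and 26.2% in control 1, 2 and 3. Igtp took 7.26%, 10.3% and 10.1% in FID 1, 2 and 3 and 5.87%, 7.22% and 6.66% in control 1, 2 and 3. Iigp1 thus took a smaller and Igtp a larger share in every FID library than in any control library. For Igtp the separation was slight, since FID 1 at 7.26% and control 2 at 7.22% were almost equal. These shares rest on 378 and 275 counts of Igtp, so counting error alone could reverse their order. Both were chosen after their values were seen, and the shares were not tested. Per kilobase of exon, Gbp2 had the highest level, at 100.0 ± 79.0 CPM per kb in FID and 41.7 ± 24.8 CPM per kb in control (SD, n = 3 each). In control Iigp1 followed at 34.2 ± 22.7 CPM per kb, then Irgm1 at 24.6 ± 13.3 and Igtp at 23.0 ± 10.2 CPM per kb. In FID the second place went to Igtp at 80.9 ± 61.4 CPM per kb, and Iigp1 ranked 6th at 48.1 ± 28.9 CPM per kb. Tgtp1 was lowest in both groups, at 6.03 ± 4.95 CPM per kb in FID and 4.22 ± 3.88 CPM per kb in control. Genes next to each other in either order differed by less than the larger SD of the pair, except Gbp3 at 19.0 ± 6.89 and Gbp7 at 10.5 ± 5.66 CPM per kb in control.

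Other genes of the 2 families mostly averaged higher in FID, and none passed. Of 21 further GBP and IRG symbols, 14 were matched, 10 were tested and 9 had a log2 fold change above 0, with a median of 1.74. An unadjusted edgeR p under 0.05 was reached by 6 upward and 1 downward, 0 passed edgeR's adjusted test and 2 passed DESeq2's. Of all tested genes, 9.81% had such an edgeR p upward and 3.66% passed DESeq2's adjusted test upward. The same shares apply to the gene lists that follow. The median was 1.02 without FID 2. Gm5431, an IRG gene beside Irgm1 (chromosome 11, 48887422 to 48902214), stood at 8.11, 36.9 and 20.2 CPM in FID 1, 2 and 3 and at 6.13, 1.82 and 1.86 CPM in control 1, 2 and 3. Its groups did not overlap, with a log2 fold change of 2.86 (± 0.67 SE, adjusted p 0.136 by edgeR and 9.84e-04 by DESeq2). Gm12250 had a log2 fold change of 2.68 (± 0.85 SE, adjusted p 0.179 by edgeR). It is a processed pseudogene by its GENCODE M21 label alone, which does not settle whether it makes a protein. RefSeq gives it a promoter window, which held 2 ISRE cores and 1 GAS core. Gbp2b, in the chromosome 3 cluster, had 1.77 (± 0.63 SE, adjusted p 0.203 by edgeR and 0.0418 by DESeq2). Irgq, an IRG relative that is not known for induction by interferon, had lower values in every FID library than in any control, at 18.9, 16.2 and 17.2 CPM in FID 1, 2 and 3 against 28.3, 24.7 and 19.1 CPM in control 1, 2 and 3 (log2 fold change -0.46, ± 0.18 SE, adjusted p 0.233 by edgeR).

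Ligands that induce the GTPases were at the limit of detection. Ifng, the gene of interferon gamma, had 0 counts in all 6 libraries. A count of 0 allows up to 3 counts, or 0.315 to 0.338 CPM in FID and 0.293 to 0.593 CPM in control, counting error only. Of 11 interferon genes, 9 had 0 counts in every library, and the 11 summed to at most 0.216 CPM in any FID library and 0.101 CPM in any control library. Receptor genes had log2 fold changes of 0.01 for Ifngr1 and 0.31 for Ifngr2, the chains of the interferon gamma receptor, and -0.02 for Ifnar1 and 0.19 for Ifnar2, those of the type I interferon receptor (edgeR adjusted p 0.304 or above). Of 16 receptor, kinase and transcription factor genes, 6 had an unadjusted edgeR p under 0.05, all higher in FID, 0 passed edgeR's adjusted test and 4 passed DESeq2's. The median log2 fold change was 0.32, and 0.14 without FID 2. Irf7, a factor of the type I response, had a log2 fold change of 2.96 (± 0.81 SE, adjusted p 0.152 by edgeR) and Batf2 had 2.57 (± 0.67 SE, adjusted p 0.140 by edgeR). Irf1, the interferon gamma-responsive factor that acts on GBP promoters, did not share the members' order of libraries. It stood at 94.2, 189.5 and 99.9 CPM in FID 1, 2 and 3 and at 266, 89.6 and 74.9 CPM in control 1, 2 and 3, with control 1 highest (log2 fold change -0.16, ± 0.51 SE, adjusted p 0.893 by edgeR).

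Among 7 brakes on interferon signalling the median log2 fold change was 0.06, with 2 upward and 1 downward at an unadjusted edgeR p under 0.05, 0 past edgeR's adjusted test and 2 past DESeq2's. Usp18, which blocks the type I receptor, had 2.27 (± 0.67 SE, adjusted p 0.164 by edgeR) and Ptpn6, a phosphatase of blood cells, had 1.25 (± 0.20 SE, adjusted p 0.122 by edgeR). Socs3, an inhibitor of cytokine receptors, measured 423, 397 and 241 CPM in FID 1, 2 and 3 and 1026, 557 and 464 CPM in control 1, 2 and 3, all FID libraries lying below all controls (log2 fold change -0.95, ± 0.34 SE, adjusted p 0.204 by edgeR). Socs1, the main brake on the interferon gamma receptor, had a log2 fold change of -1.02 (± 0.46 SE, adjusted p 0.283 by edgeR).

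Genes known for induction by type I interferon had a median log2 fold change of 2.27 over 20 tested genes. All 20 were above 0 and 19 had an unadjusted edgeR p under 0.05. By adjusted p, 0 passed edgeR's test and 12 passed DESeq2's. The median was 1.71 without FID 2. Genes known for induction by interferon gamma had a median of 1.28 over 18 tested genes, 14 above and 4 below 0, with 9 at an unadjusted edgeR p under 0.05, 0 past edgeR's adjusted test and 4 past DESeq2's. Without FID 2 this median was 0.57. The members' median of 1.31 lay closer to the second list. That list was wide, from -1.02 to 2.81, and the first ran from 1.56 to 3.03. Which interferon, if any, acted on the members was not tested. Whether the lists differ was not tested. Mx1, an antiviral GTPase of the dynamin family, stood at 11.9, 102 and 48.6 CPM in FID 1, 2 and 3 and at 6.13, 5.07 and 8.69 CPM in control 1, 2 and 3, without overlap of the groups (log2 fold change 3.02, ± 0.71 SE, adjusted p 0.136 by edgeR). Fcgr1, a high-affinity antibody receptor of macrophages, likewise separated the groups, with a log2 fold change of 2.48 (± 0.47 SE, adjusted p 0.136 by edgeR), and the immunoproteasome genes Psmb9 and Psmb8 had 1.53 (SE 0.45) and 1.40 (SE 0.41), with edgeR adjusted p of 0.164 and 0.165. A further list of 7 tested genes held other large interferon-induced GTPases, their relatives and Rnf213, which is not a GTPase. Of these, 3 had an unadjusted edgeR p under 0.05 (Mx1, Mx2 and Rnf213), all higher in FID, 0 passed edgeR's adjusted test and 1 passed DESeq2's. Their median was 1.25, and 0.67 without FID 2.

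Partners of the GTPases had median log2 fold changes nearer 0, whereas a list of inflammasome genes did not. Of 14 genes that recruit GBPs and IRGs to membranes, such as the autophagy conjugation genes, 11 had a log2 fold change above 0 with a median of 0.21, 3 had an unadjusted edgeR p under 0.05, 0 passed edgeR's adjusted test and 1 passed DESeq2's. Gabarap, an Atg8 protein that takes part in loading GBPs and IRGs onto vacuoles, measured 473, 562 and 532 CPM in FID 1, 2 and 3 and 399, 398 and 402 CPM in control 1, 2 and 3 (log2 fold change 0.39, ± 0.12 SE, adjusted p 0.179 by edgeR). Atg3, which conjugates Atg8 proteins to lipid, had 0.42 (± 0.16 SE, adjusted p 0.230 by edgeR) and the ubiquitin ligase gene Trim21 had 1.48 (± 0.51 SE, adjusted p 0.195 by edgeR). The 6 genes of prenylation, by which some GBPs are anchored, had a median of -0.01, 0 at an unadjusted edgeR p under 0.05 and 0 past the adjusted test, by DESeq2 as well. The 12 inflammasome genes include caspases activated after GBP action, but also sensors such as Naip2 and Naip5, so not all act downstream of GBPs. Among the 12, 11 were above 0 with a median of 1.06, 8 had an unadjusted edgeR p under 0.05, 0 passed edgeR's adjusted test and 6 passed DESeq2's. Casp1 had 1.37 (± 0.34 SE, adjusted p 0.139 by edgeR), Naip2, a sensor of bacterial proteins, 1.16 (± 0.26 SE, adjusted p 0.136 by edgeR) and Naip5 1.04 (± 0.27 SE, adjusted p 0.141 by edgeR). The groups did not overlap for these 3 genes, which were named for the smallest p of the list. Over the list, 7 of 12 genes separated upward, against 13.0% of all tested genes.

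The genes whose pattern over the 6 libraries was most like the members' mean log2(CPM + 1) were ranked by Pearson correlation, given as a description over 6 libraries that share their depth and makeup. The 10 nearest were Daxx (r = 0.999), Gm43302, Parp10, Dtx3l, Tapbp, Gm4070, H2-Q6, Plscr2, Cpne3 and Pcgf5 (r = 0.991), and 131 of 12872 other tested genes (1.02%) had an r above 0.95. Daxx, a histone chaperone, stood at 36.2, 165 and 89.2 CPM in FID 1, 2 and 3 and at 71.6, 25.6 and 35.9 CPM in control 1, 2 and 3. Tapbp, the tapasin that loads peptides onto MHC class I, lies next to Daxx on chromosome 17 and stood at 204, 564 and 369 CPM in FID 1, 2 and 3 and at 288, 169 and 209 CPM in control 1, 2 and 3. Gm43302 (chromosome 5, 105214907 to 105293695) spans the place of Gbp10 and overlaps that of Gbp6 in RefSeq's annotation of the same assembly, and neither Gbp10 nor Gbp6 was matched by identifier. It stood at 19.7, 166 and 71.1 CPM in FID 1, 2 and 3 and at 41.5, 10.04 and 19.7 CPM in control 1, 2 and 3.

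Markers of cell types moved with some libraries. In such bulk RNA, fewer cells of a type and less RNA per cell cannot be told apart. All 14 macrophage markers had a log2 fold change above 0, and they summed to 10712, 10400 and 7946 CPM in FID 1, 2 and 3 and to 6181, 5948 and 3763 CPM in control 1, 2 and 3. The rank of FID 1 in this sum came from Lyz2, at 4302, 2193 and 1720 CPM in FID 1, 2 and 3 and 1857, 2283 and 1429 CPM in control 1, 2 and 3. Without Lyz2, left out after its values were seen, the sums were 6410, 8207 and 6226 CPM in FID 1, 2 and 3 and 4324, 3665 and 2335 CPM in control 1, 2 and 3. FID 2 was then highest, as for the members, but FID 1 still exceeded FID 3 and every control, unlike for the members. The sum includes Fcgr1, also on the list of genes known for induction by interferon gamma. Fcgr1 stood at 189, 739 and 513 CPM in FID 1, 2 and 3 and at 111, 65.6 and 82.1 CPM in control 1, 2 and 3. Of the 14 markers, 9 were higher in FID 2 than in FID 1. Of 8 inflammatory monocyte markers 7 were above 0, and they summed to 1572, 3050 and 2712 CPM in FID 1, 2 and 3 and to 871, 1525 and 1848 CPM in control 1, 2 and 3, so that FID 2 was highest and FID 1 lay within the controls. All 10 endothelial markers were below 0, and they summed to 1640, 2196 and 1324 CPM in FID 1, 2 and 3 and to 4949, 2125 and 1367 CPM in control 1, 2 and 3. Control 1, highest for all 10 of these markers, was also the highest control for all 9 members. Of 12 FAP markers 11 were below 0. The 14 markers of T and NK cells, which make interferon gamma, summed to 8.56 to 22.8 CPM in FID and 1.76 to 16.02 CPM in control, with Cd3e at 0 counts in every library. Cd4 alone gave 10.5 CPM in FID 2 and 10.5 CPM in control 1. Klrk1 stood at 0.676, 9.34 and 7.67 CPM in FID 1, 2 and 3. In control 1, 2 and 3 it stood at 0.593, 0.507 and 0.391 CPM. Trac averaged higher in control, at 0.991 CPM against 0.335 CPM in FID. Klrk1 and Trac did not pass the filter on low counts. The 10 neutrophil markers summed to 46.0 to 75.4 CPM in FID and 37.2 to 42.7 CPM in control, 6 B cell markers to 17.1 to 32.4 and 7.71 to 16.4 CPM, and 8 dendritic cell markers to 32.2 to 44.9 and 19.1 to 69.8 CPM. The 8 markers of satellite cells and myoblasts summed to 257 to 331 CPM in FID and 267 to 415 CPM in control. The part of these cell types in the members' values was not tested.

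**Figure D5:**
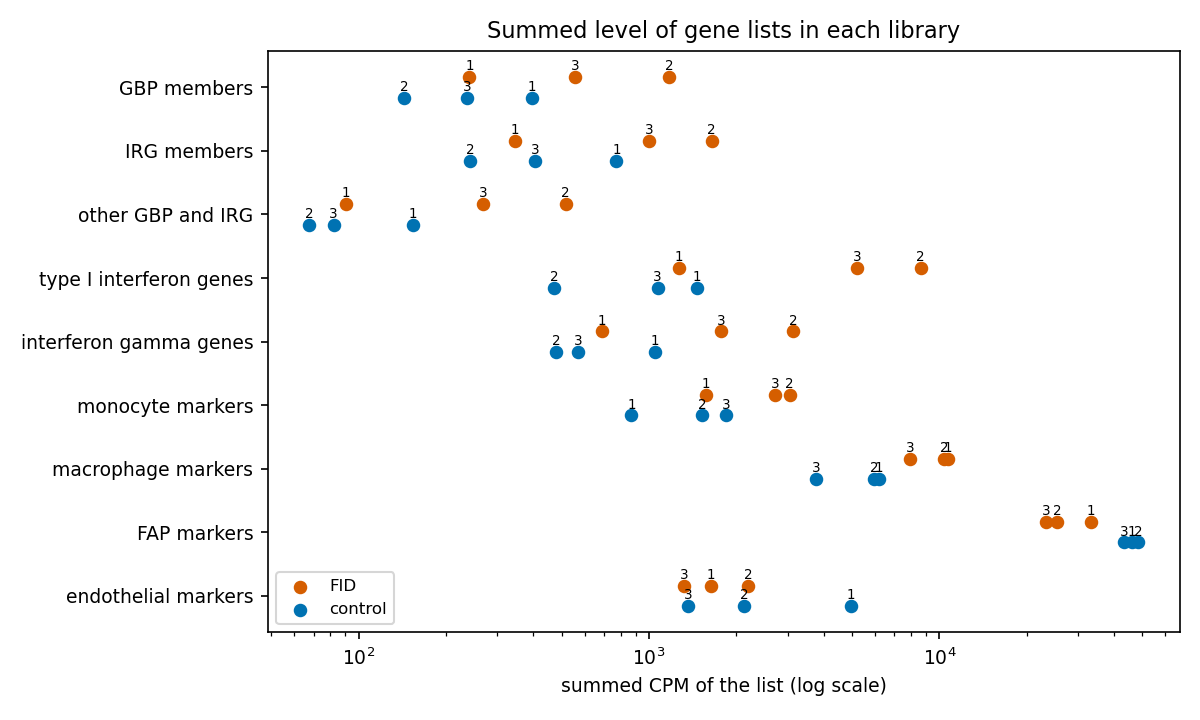
Summed CPM (log axis) of gene lists in each library, with FID in orange above control in blue and points numbered by replicate. For both sets of members and for the interferon-induced lists, FID 2 and FID 3 are the highest points and FID 1 lies among the controls, whereas control 1 is the highest point for endothelial markers. For macrophage markers FID 1 is highest at 10712 CPM through Lyz2. Without that gene FID 2 is highest, at 8207 CPM, and FID 1 still exceeds every control.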

How the data were processed

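RNA-seq libraries labelled mouse skeletal muscle (3 FID, 3 control) were deposited as raw counts of reads per Ensembl gene, 1 file per library. Per the labels' protocols, 1000 ng of RNA (integrity number over 5.6) went into a directional library kit. Per the submitters' processing notes, reads were placed on mm10, and the tools named, without roles, are STAR, Bowtie2 2.5.4, HTSeq, DESeq2, cutadapt and SAMtools. The sources used here give neither annotation release nor strand setting, and overlapping antisense genes may therefore not be separated. Entries that name no gene (9.60% to 10.9% of each file, reads aligned to more than 1 place among them) stayed out of library sizes and tests.

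Symbols came from a reference name table that matched 42462 of 43432 identifiers, and coordinates and exon lengths from GENCODE M21 (mm10). Genes were filtered with filterByExpr (minimum count 10, minimum total 15) and tested with edgeR 4.0.16 under R 4.3.3, with TMM scaling, group as the only term and Benjamini-Hochberg adjustment. The SE was taken as the size of the log2 fold change over the root of its F statistic. The fit was tested on simulated data. The common biological coefficient of variation was 23.1%. No pair within a group was within sampling noise (chi-square per degree of freedom 14.1 to 46.0 over genes with at least 20 counts). Alternatives were other scalings, no filter, DESeq2 1.42.0, limma-voom (limma 3.58.1) with and without sample weights, a replicate block, and leaving out each library. The members and gene lists were chosen with earlier results of these data known. Genes named are the members, up to 3 genes with the smallest p per pathway list and the 10 nearest in pattern. Gbp8, Tgtp2, Irgq, Irf1, Socs1, Ifng, Cd4, Klrk1, Trac and the interferon receptor genes were named after their values were seen. Protein features were not analysed here, and 1 gene that this rule names is not reported here.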

Additional observations from a re-analysis of the deposited data

Results flagged for a closer look

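Gbp8, a GBP gene of the chromosome 5 cluster, did not pass the filter on low counts and so has no test. It stood at 0.225, 4.62 and 1.73 CPM in FID 1, 2 and 3, while control 1, the only control with a count, had 0.198 CPM. The share of reads aligned to more than 1 place, which enter no gene count, was 3.67%, 4.49% and 4.15% in FID 1, 2 and 3 and 3.11%, 3.39% and 3.47% in control 1, 2 and 3, every FID library lying above every control library.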

How the results depend on the processing

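Under other scalings, no filter, DESeq2, limma-voom and its weighted form the median log2 fold change of the members stayed between 1.16 and 1.68, and all 9 estimates stayed above 0. Genes past the adjusted threshold numbered 0 by edgeR but 269 with no filter, 764 by DESeq2 and 1531 by limma-voom with sample weights. Members past it numbered 0 by edgeR, 2 by DESeq2 and 5 by limma-voom with sample weights (Gbp3, Gbp9, Irgm1, Irgm2 and Igtp), with the shares of all tested genes given above. Members at an unadjusted p under 0.05 numbered 4 by edgeR, 7 with no filter, 8 by limma-voom with sample weights and 0 by limma-voom, where 19.0%, 13.8%, 32.0% and 18.5% of all tested genes did so in either direction. The cause of these differences was not tested. With the replicate number as a block, 0 members reached an unadjusted p under 0.05 (18.4% of all tested genes did), 0 passed the adjusted test and the median was 1.18. The labels give same-numbered samples nothing in common but the number. Deviations from the group mean correlated with r of -0.0128, -0.32 and 0.343 for pairs 1, 2 and 3. Between differently numbered libraries r ran from -0.379 to 0.332. So few pairs cannot show whether the libraries were paired.

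With 1 library left out, genes past the adjusted threshold ranged from 0 to 359 (without FID 1), members past it from 0 to 2 (without FID 1), members at an unadjusted p under 0.05 from 0 (without FID 2 or control 2) to 8 (without control 1, where 19.8% of all tested genes did so) and members without overlap from 0 to 7 (without FID 1, where 40.8% of all tested genes did not overlap). The median of the members ranged from 0.73 without FID 2 to 1.72 without FID 1. Of 103 other tested genes in the pathway lists, 53 had an unadjusted p under 0.05 (19.0% of all tested genes did), and 26 (without FID 2) to 68 with 1 library left out. Leaving out FID 2 reversed Iigp1 (log2 fold change -0.03, and up to 1.15 without control 1) and Tgtp1 (-0.33, and up to 1.60 without control 1). With 3 libraries a group, depth limits statements on Tgtp1 (59 to 355 counts) and on interferon genes at 0.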
